A study of Mus musculus with 8 samples.

Results

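The mRNAs of 10 heterogeneous nuclear ribonucleoprotein (hnRNP) genes were followed between the non-polysomal (NP) and polysomal (P) datasets of mouse oocytes at nuclear envelope breakdown (NEBD). The genes were Hnrnpa1, Hnrnpa2b1, Hnrnpa3, Hnrnpc, Hnrnpd, Hnrnpf, Hnrnpk, Hnrnpl, Hnrnpm and Hnrnpu. They were picked out by gene symbol, with no threshold on their values, and all 10 were found among the 25574 genes of the expression table. Each dataset consisted of 4 libraries, numbered 1 to 4, from profiles that the study prepared independently as biological replicates. CD1 mice aged 8 weeks received 5 IU of pregnant mare serum gonadotropin, and fully grown oocytes were collected 46 h later with 100 µM of the phosphodiesterase inhibitor IBMX, which holds them in meiotic arrest. After removal of the cumulus cells the oocytes matured for 180 min without IBMX. Cycloheximide, which stops ribosomes on the mRNA, was then given at 0.1 mg/ml for 10 min. Each profile was made from 200 pooled oocytes on a 10–50% sucrose gradient that was cut into 10 fractions. RNA of fractions 2–5 (ribosomal subunits, monosomes and stored RNA-protein particles) formed the NP sample, and RNA of fractions 6–10 formed the P sample. No genetic change or drug treatment distinguished the datasets, so the comparison asks in which part of the gradient each mRNA stood at the higher relative level. FPKM is scaled within each library, so P over NP does not give the portion of an mRNA that was on polysomes. Fraction 1 was in neither sample, and the study could not exclude that it held some stored RNA-protein particles.

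hnRNP proteins coat nascent transcripts in the nucleus and take part in their splicing, 3′ end formation and export. Several of them shuttle to the cytoplasm, where they act on the stability, localisation and translation of mRNAs. A fully grown oocyte no longer transcribes, and which of its stored mRNAs are bound by ribosomes determines the proteins it makes. When the nuclear envelope breaks down, proteins that had been held in the nucleus mix with the cytoplasm.

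Oocyte markers summed to far higher levels than markers of the surrounding somatic cells. The summed FPKM of 14 oocyte markers, led by Zp3, Gdf9 and Bmp15, was 7864–14872 in NP and 9936–37281 in P. Of these 14 markers, 2 had an unadjusted p below 0.05 in limma, both lower in P, against 9.47% of all genes. They were Nobox with a log2 fold change of −2.25 and Figla with −2.69. Neither passed adjustment in limma (adjusted p = 0.376 and 0.405). Granulosa and cumulus cell markers summed to 15.3–94.4 FPKM in NP and 2.86–64.0 FPKM in P over 18 genes. Of these 18 genes, Amhr2, Inhba, Inhbb, Fst, Foxl2, Has2 and Ptx3 were listed at 0 in all 8 libraries. Their highest mean levels were those of Cyp19a1 (30.03 FPKM in NP and 19.7 FPKM in P), Nr5a2 (24.1 and 13.3 FPKM) and Kitl (0.691 and 2.57 FPKM). As in any bulk sample, fewer cells of a type and less RNA per cell cannot be told apart in these values. FPKM values rose in whole steps of 1 counted read or fragment, so the number to which each library had been scaled could be recovered. In NP this number ran from 1299377 to 7594637, and in P from 2677946 to 4699328. A single count on 1 kb of transcript was thus worth 0.132–0.770 FPKM in NP and 0.213–0.373 FPKM in P. Summed over genes, the recovered counts came to 2132485–12457715 in NP and 4314337–8091245 in P, above the recovered number in all 8 libraries, so what 1 count stands for is not settled and counts are given here only as a measure of precision.

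Cytoplasmic polyadenylation elements (CPEs) are U-rich motifs near the 3′ end of an mRNA through which maturing oocytes lengthen poly(A) tails and load mRNAs onto ribosomes. The last 150 bases of the 3′ UTR were therefore searched, on the sense strand, for the CPE letters TTTTAT or TTTTAAT and for the polyadenylation hexamers AATAAA or ATTAAA. One GENCODE transcript was used per gene, on GRCm38. CPE letters were present in 3 of the 10 genes, Hnrnpa2b1, Hnrnpd and Hnrnpm, and in 25.2% of the 10507 tested genes with a 3′ UTR of at least this length. A hexamer was present in 9 of the 10 genes, the exception being the transcript used for Hnrnpc, and in 82.7% of the 10507 genes. The 3 stretches with CPE letters are shown together with the 3′ ends of Hnrnpa1 and Hnrnpk, in which the hexamer was found without CPE letters. Each is given 5′ to 3′ as DNA letters of the mRNA strand, with the motif in capitals.
Hnrnpa2b1: tttaaatacaagTTTTATaaaataaatact
Hnrnpd: atttgcactaaaTTTTATtttctgaaagat
Hnrnpm: ttgaattaattTTTTAATgattggggttcc
Hnrnpa1: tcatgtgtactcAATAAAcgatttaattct
Hnrnpk: aatccacatctaAATAAAacttccatgatg
All 5 stretches lie in the 3′ UTR. The Hnrnpa2b1 stretch is chr6:51461133-51461162 on the minus strand, and its motif starts 27 bases before the transcript end. The gene extent of the deposited table runs on past this transcript end, to 51460434. The Hnrnpd stretch is chr5:99955994-99956023 on the minus strand, with the motif 77 bases before the end. It lies beyond the gene extent of the deposited table, which starts at 99958426. The Hnrnpm stretch is chr17:33646341-33646370 on the minus strand, with the motif 127 bases before the end. The Hnrnpa1 stretch is chr15:103244922-103244951 on the plus strand and the Hnrnpk stretch is chr13:58391241-58391270 on the minus strand, with hexamers 22 and 20 bases before the end. A match describes these letters only and shows neither a bound protein nor a used 3′ end.

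The 10 mRNAs were present at very different levels. Hnrnpc was the most abundant of them in all 8 libraries, with a mean of 300.1 ± 293 FPKM in NP and 212 ± 199 FPKM in P (SD, n = 4). It took between 31.4% (P4) and 84.0% (NP4) of the FPKM summed over the 10 genes. Hnrnpk was next in 6 of 8 libraries, with 27.9 ± 13.7 FPKM in NP and 34.0 ± 17.5 FPKM in P. Hnrnpf, Hnrnpa1, Hnrnpl and Hnrnpu had means between 6.56 and 30.7 FPKM, and Hnrnpa2b1 and Hnrnpd between 1.26 and 5.01 FPKM. Hnrnpm and Hnrnpa3 were at the limit of detection, each listed at 0 in several libraries.

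**Figure D1:**
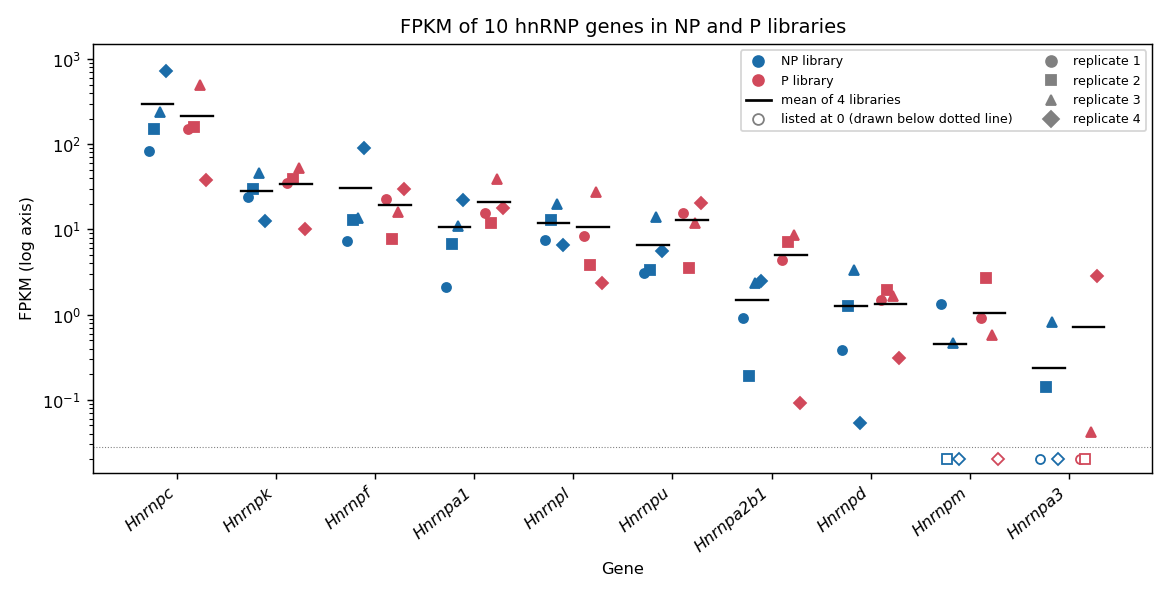
FPKM (log axis) of each hnRNP gene in the 4 NP (blue) and 4 P (red) libraries, with the replicate number as the marker shape, the mean of 4 libraries as a bar, and open markers below the dotted line for values listed at 0. Hnrnpc lies highest, at means of 300.1 FPKM in NP and 212 FPKM in P, and for each gene the NP and P points overlap.

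In order of mean FPKM, the NP dataset ran Hnrnpc, Hnrnpf, Hnrnpk, Hnrnpl, Hnrnpa1, Hnrnpu, Hnrnpa2b1, Hnrnpd, Hnrnpm and Hnrnpa3. Of the neighbours in this order, Hnrnpu and Hnrnpa2b1 were the only pair whose 4 libraries did not overlap. The P dataset ran Hnrnpc, Hnrnpk, Hnrnpa1, Hnrnpf, Hnrnpu, Hnrnpl, Hnrnpa2b1, Hnrnpd, Hnrnpm and Hnrnpa3, and all neighbours overlapped. Within single libraries the step from Hnrnpc to the next gene was still seen in 4 of 4 NP and 4 of 4 P libraries. Hnrnpf stood above Hnrnpk in NP by its mean, but in 1 library of 4, namely NP4.

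With the FPKM values as deposited, no difference between P and NP passed the test for any of the 10 mRNAs. In limma, fitted on log2(FPKM + 1) over 14292 genes with Benjamini-Hochberg adjustment, 0 of 10 had an adjusted p below 0.1, against 0.021% of all genes tested (3 genes). With voom on the recovered counts, a test added after the data were seen, 0 of 10 passed against 1.32% (188 genes). At an unadjusted p below 0.05 in limma, 0 of 10 were called, against 9.95% of all genes, 0.476% being higher and 9.47% lower in P. NP and P libraries overlapped for each of the 10, whereas they did not overlap for 6.28% of all genes, of which the P libraries were higher in 0.357% and the NP libraries in 5.92% of all genes. The log2 fold change of P over NP was positive for 7 of 10 hnRNP genes and for 28.6% of all genes tested. Its median was 0.22 over the hnRNP genes and −0.39 over all genes, a shift between the libraries to which single fold changes should be related. Intervals were wide, the widest being that of Hnrnpa2b1 from −0.90 to 2.94, while that of Hnrnpk ran from −1.30 to 1.71.

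**Figure D2:**
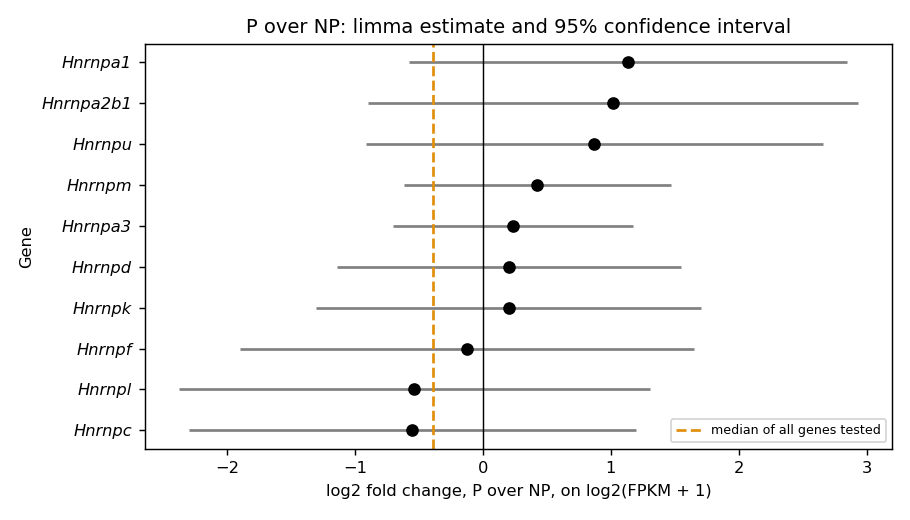
Log2 fold change of P over NP on the log2(FPKM + 1) scale for each hnRNP gene, as the limma estimate (point) with its 95% confidence interval (line) from 4 NP and 4 P libraries; the dashed line is the median of all genes tested. The intervals of all 10 genes contain 0, and 7 estimates are above 0.

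Among the hnRNP A/B genes, which encode abundant shuttling proteins of the core particle, Hnrnpa1 and Hnrnpa2b1 had the highest fold changes of the 10. Hnrnpa1, a regulator of splice site choice (chromosome 15, 103240432–103244955, plus strand), was measured at 2.12, 6.82, 11.0 and 22.2 FPKM in NP1 to NP4 and at 15.4, 11.9, 38.9 and 17.7 FPKM in P1 to P4. The first 3 NP libraries were below each P library, while NP4 was above 3 of the 4. For Hnrnpa1, 13 counts lay behind NP1 and 17 behind NP2. Its means were 10.5 ± 8.60 FPKM in NP and 21.0 ± 12.2 FPKM in P, a log2 fold change of 1.14 (SE 0.80, 95% interval −0.57 to 2.85, limma adjusted p = 0.637).

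Hnrnpa2b1, which encodes a protein that binds trafficking signals and guides mRNAs to sites in the cytoplasm (chromosome 6, 51460434–51469894, minus strand), had 0.920, 0.188, 2.35 and 2.48 FPKM in NP1 to NP4 and 4.32, 7.10, 8.53 and 0.0914 FPKM in P1 to P4. P1, P2 and P3 were above each NP library, and P4, with 1 count behind its value, was below each of them. Means were 1.49 ± 1.12 FPKM in NP and 5.01 ± 3.72 FPKM in P, with a log2 fold change of 1.02 (SE 0.89, limma adjusted p = 0.670). The log2 fold change was 1.71 without P4 and 0.67 without P3, and the ratio of the means, 3.37 over all libraries, was 4.48 and 2.58.

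Hnrnpa3, a close relative of both, was listed at 0, 0.143, 0.815 and 0 FPKM in NP1 to NP4 and at 0, 0, 0.0417 and 2.84 FPKM in P1 to P4. Its signal came from 32 counts in NP3 and 41 counts in P4, with at most 1 count in any other library. The log2 fold change of 0.24 (SE 0.44, limma adjusted p = 0.820) turned to −0.24 without P4. Of 26 other genes that share at least 300 bases at 95% identity with Hnrnpa3, 25 are annotated as pseudogenes, so reads may have been split among copies. Hnrnpa1 has 9 such copies, all pseudogenes, of which the single one in the table stayed at or below 0.701 FPKM.

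Hnrnpc encodes the protein that stays in the nucleus and packages nascent transcripts by binding uridine tracts (chromosome 14, 52073380–52104028, minus strand). Its level was 82.5, 150.2, 239 and 728 FPKM in NP1 to NP4 and 152, 158, 499.5 and 38.4 FPKM in P1 to P4. NP4 was the highest and P4 the lowest of the 8, while the remaining libraries were interspersed. P over NP gave a log2 fold change of −0.55 (SE 0.81, 95% interval −2.30 to 1.20, limma adjusted p = 0.779), and it was 0.03 without NP4 and 0.08 without P4. Between 295 and 15868 counts lay behind each value. Counts are not independent molecules, so the error of single values was not determined.

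Hnrnpu encodes a large chromatin- and RNA-binding scaffold protein, also known as SAF-A (chromosome 1, 178323074–178337797, minus strand). Its level was 3.11, 3.37, 14.1 and 5.65 FPKM in NP1 to NP4 and 15.5, 3.51, 11.7 and 20.2 FPKM in P1 to P4. P1 and P4 were above all NP libraries, P3 was below NP3 alone, and P2 lay within the NP range. The means of 6.56 ± 5.17 FPKM in NP and 12.7 ± 7.05 FPKM in P gave a log2 fold change of 0.87 (SE 0.83, limma adjusted p = 0.689).

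Hnrnpk, whose KH domains bind C-rich RNA and which acts in transcription, splicing and translation (chromosome 13, 58391142–58403343, minus strand), showed the same order of libraries in both datasets. It was measured at 24.0, 29.5, 45.6 and 12.5 FPKM in NP1 to NP4 and at 34.8, 38.9, 52.0 and 10.1 FPKM in P1 to P4. In each dataset library 3 was highest, followed by libraries 2, 1 and 4, and the ranges overlapped. The log2 fold change was 0.20 (SE 0.70, limma adjusted p = 0.907), and it changed sign without NP4 (−0.12) or without P3 (−0.06). A pseudogene with a near-identical stretch, Gm7964, reached 24.6 FPKM in 1 library, so reads may have been split between it and Hnrnpk.

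Hnrnpf encodes a splicing regulator that binds G tracts (chromosome 6, 117900324–117925622, plus strand). It had 7.39, 12.8, 13.6 and 89.1 FPKM in NP1 to NP4 and 22.8, 7.65, 16.0 and 30.2 FPKM in P1 to P4. NP4 alone was far above all others, and P1, P3 and P4 exceeded the remaining NP libraries. The log2 fold change of −0.12 (SE 0.83, limma adjusted p = 0.955) became 0.61 without NP4, and the ratio of the means moved from 0.623 to 1.70. Of 9 other genes that share a near-identical stretch with Hnrnpf, 6 are annotated as pseudogenes. The table held 2 of the 9, at no more than 3.03 FPKM.

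Hnrnpl, which encodes a binder of CA repeats in introns and 3′ UTRs (chromosome 7, 28808541–28822266, plus strand), had 7.42, 13.1, 19.9 and 6.61 FPKM in NP1 to NP4 and 8.40, 3.77, 27.6 and 2.32 FPKM in P1 to P4. P3 was the highest and P2 and P4 the lowest of all 8, so the P libraries enclosed the NP range. Its log2 fold change was −0.54 (SE 0.86, limma adjusted p = 0.794), with means of 11.7 ± 6.13 FPKM in NP and 10.5 ± 11.7 FPKM in P.

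Hnrnpd, also known as AUF1, binds AU-rich elements and takes part in mRNA decay (chromosome 5, 99958426–99978938, minus strand). It was measured at 0.387, 1.27, 3.33 and 0.0542 FPKM in NP1 to NP4 and at 1.49, 1.92, 1.67 and 0.307 FPKM in P1 to P4. NP held both the highest and the lowest value, and the P values except P4 lay close together. Behind these values lay 6, 8, 118 and 2 counts in NP1 to NP4 and 34, 30, 36 and 4 counts in P1 to P4. The means of 1.26 ± 1.47 FPKM and 1.35 ± 0.715 FPKM gave a log2 fold change of 0.21 (SE 0.63, limma adjusted p = 0.895).

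Hnrnpm, which encodes a regulator of alternative splicing (chromosome 17, 33646233–33686860, minus strand), was listed at 1.33, 0, 0.468 and 0 FPKM in NP1 to NP4 and at 0.905, 2.72, 0.574 and 0 FPKM in P1 to P4. It was thus found in 2 NP and 3 P libraries, with at most 41 counts. Its log2 fold change was 0.43 (SE 0.49, limma adjusted p = 0.726).

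The 3 genes with CPE letters near the 3′ end of the transcript used had log2 fold changes of 1.02 (Hnrnpa2b1), 0.21 (Hnrnpd) and 0.43 (Hnrnpm). The 7 others, with hexamer only or neither motif, ranged from −0.55 for Hnrnpc to 1.14 for Hnrnpa1. Both sets therefore covered overlapping values.

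The median FPKM of all genes tested was 3.41–5.55 in NP and 1.05–3.02 in P, and 8.64–18.9% of them were at 0 in NP libraries against 22.2–36.5% in P libraries. The scaling between libraries therefore bears on the direction of the smaller differences. After quantile normalization, 9 of the 10 fold changes were positive, Hnrnpf moving to 0.39 and Hnrnpl to 0.11. When each library was scaled to one median FPKM, all 10 were positive, and Hnrnpc moved to 0.78, Hnrnpf to 1.12 and Hnrnpl to 0.63. The median of all genes tested then was −0.04 and 0.21, respectively. Under the one-median scaling, Hnrnpa1, Hnrnpu and Hnrnpk had an unadjusted p below 0.05 in limma, that is 3 of 10 against 7.04% of all genes in this direction. None of these passed adjustment.

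**Figure D3:**
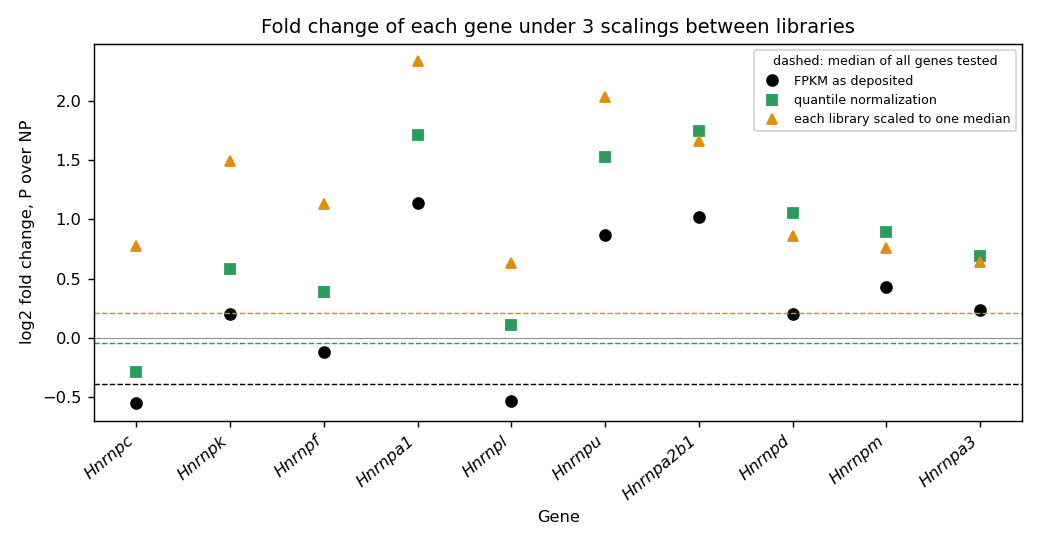
Log2 fold change of P over NP for each hnRNP gene with FPKM as deposited (circles), after quantile normalization (squares) and with each library scaled to one median FPKM (triangles); dashed lines give the median of all genes tested under each scaling. Hnrnpc is at −0.55 as deposited and at 0.78 with one median, and Hnrnpa1 is above 1 under all 3.

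The rank of a gene within its own library does not depend on such scaling. By the percentile among the 14292 tested genes, 9 of 10 hnRNP mRNAs had a higher mean in P than in NP, against 50.1% of all genes, and Hnrnpc was the exception (95.5 in NP and 93.9 in P). The median difference was 14.4 percentile points for the hnRNP genes and 0.0188 for all genes. Because more genes were at 0 in P, a gene listed at 0 sat at percentile 4.32–9.47 in NP and 11.1–18.2 in P, so a gene without any count stood higher in P. The part of this in the differences was not tested.

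Hnrnpd ranked at percentiles 25.2, 33.4, 42.1 and 20.7 in NP1 to NP4 and at 42.3, 50.9, 50.5 and 42.2 in P1 to P4. These groups did not overlap, by a margin of 42.1 to 42.2, while the P percentiles lay wholly above those of NP for 4.62% and wholly below for 2.53% of all genes. At this margin stood NP3, with 118 counts and 3.33 FPKM, and P4, with 4 counts and 0.307 FPKM. P4 thus ranked above NP3 at a lower FPKM. Of all genes tested, 8.64% were at 0 in NP3 and 36.5% in P4, and the part of this in the separation was not tested. The mean difference was 16.1 points, with p = 0.0286 in a two-sided exact permutation test, the smallest value that 4 against 4 libraries can give. It rose to 0.0571 when any P library was left out, and none of these p values was adjusted for the 10 genes compared. Hnrnpa2b1 had a mean percentile of 34.0 in NP and 56.5 in P, which did not pass the test (exact permutation p = 0.0571). Hnrnpu, at 53.6 in NP and 69.9 in P, had the same exact permutation p of 0.0571. Hnrnpa1 (58.9 and 76.6) and Hnrnpm (18.6 and 38.0) both gave an exact permutation p of 0.0857. The remaining genes differed by −1.53 to 12.8 points, with exact permutation p values from 0.343 to 0.971. These tests took the libraries as unpaired.

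As a share of the FPKM summed over the 10 genes, Hnrnpc made up 76.7% of the NP total and 66.8% of the P total, by the means of 4 libraries. Without NP4 the NP share was 67.7%. Hnrnpf held 7.86% in NP and 6.04% in P, Hnrnpk held 7.14% and 10.7%, and Hnrnpa1 held 2.69% and 6.61%. The NP share of Hnrnpk was 14.2% without NP4, above its P share. The summed level was 129, 217, 350 and 867 FPKM in NP1 to NP4 and 255, 236, 657 and 122 FPKM in P1 to P4. Without Hnrnpc the sum was 46.7–138.7 FPKM in NP and 77.5–157 FPKM in P, again overlapping. Some libraries were high or low for many of the genes. NP3 was the highest NP library for 5 genes and NP4 for 4, P3 was the highest P library for 5, and P4 was the lowest for 6 while being the highest for Hnrnpu, Hnrnpf and Hnrnpa3.

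**Figure D4:**
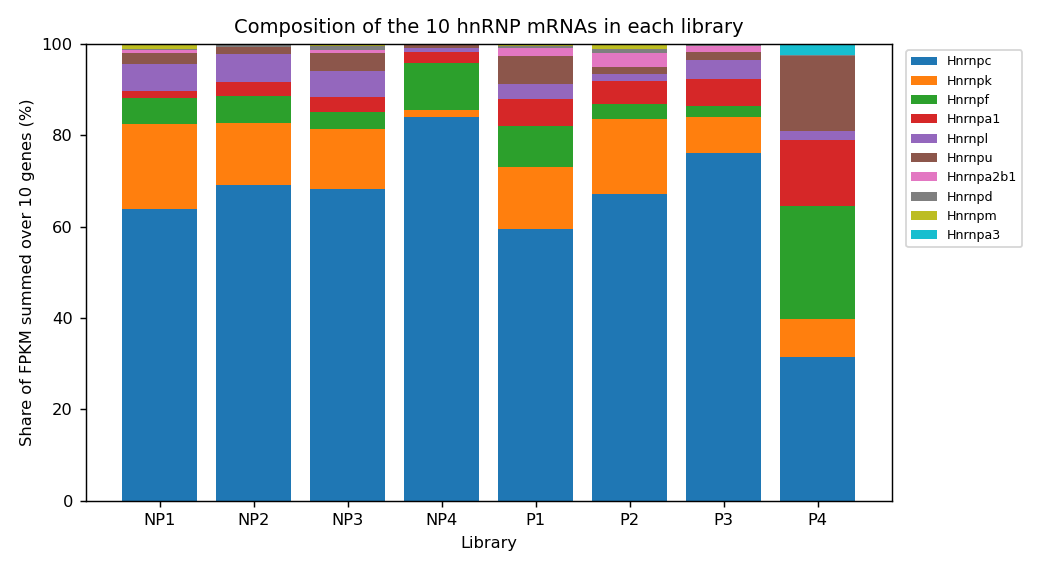
Share of each hnRNP gene in the FPKM summed over the 10 genes (percent), 1 bar per library, stacked in the order of the legend from the bottom. Hnrnpc forms the lowest and largest block in each bar, from 31.4% in P4 to 84.0% in NP4.

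Further genes of the hnRNP family, listed by their known membership, were not called either. Of 20 listed, 17 were found in the table and 16 were tested, with 0 at an adjusted p below 0.1 in limma, and their median log2 fold change was −0.25 (7 positive, 9 negative). At an unadjusted p below 0.05 in limma, 0.476% of all genes tested were higher and 9.47% lower in P. Hnrnpab, which encodes an A/B-type RNA-binding protein, was the single one of the 16 at this limit, higher in P. It had 20.8, 13.6, 174.7 and 2.60 FPKM in NP1 to NP4 and 79.8, 569.9, 109.6 and 64.7 FPKM in P1 to P4. All P libraries were above NP1, NP2 and NP4, and NP3 was above 3 of the P libraries. The log2 fold change was 2.68 (SE 1.04, unadjusted p = 0.022, limma adjusted p = 0.440). The ratio of its means was 1.60 without P2 and 16.7 without NP3. Ptbp1, the polypyrimidine tract-binding splicing repressor, had 133 ± 37.5 FPKM in NP and 81.3 ± 43.9 FPKM in P (log2 fold change −0.80, limma adjusted p = 0.637). Pcbp2, a poly(C)-binding relative of hnRNP K, had 130.04 ± 35.1 and 114 ± 74.7 FPKM (log2 fold change −0.54, limma adjusted p = 0.751).

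The genes that import or methylate hnRNP proteins gave 0 of 7 calls in limma, with a median log2 fold change of −0.01. Tnpo1, the import receptor of hnRNP A1, had means of 100.3 FPKM in NP and 199 FPKM in P (log2 fold change 0.98, limma adjusted p = 0.572). Its relative Tnpo2 had 208 ± 52.2 FPKM in NP and 178 ± 37.3 FPKM in P (log2 fold change −0.21), and the importin Kpna2 had 759 ± 122 and 624 ± 558 FPKM (log2 fold change −0.65). Among the 13 SR splicing factors, which often act against hnRNP proteins at splice sites, 0 passed limma after adjustment, and the median log2 fold change was 0.14. Srsf1 had an unadjusted p of 0.011 in limma and was higher in all 4 P libraries, with 28.4, 9.70, 33.8 and 4.75 FPKM in NP1 to NP4 and 94.6, 52.7, 61.9 and 55.9 FPKM in P1 to P4. Its log2 fold change was 2.05 (SE 0.70, limma adjusted p = 0.416). The study, which compared the same datasets by a different test, DESeq2, reported Srsf1 mRNA as enriched in polysomes. The absence of a call in limma is thus a result of this test only. Of all genes tested, 0.476% had an unadjusted limma p below 0.05 and were higher in P. In 0.357% all P libraries were above all NP libraries. Srsf2 had 29.2 ± 3.61 FPKM in NP and 48.1 ± 29.3 FPKM in P, and Srsf6 had 25.9 ± 18.6 and 13.8 ± 15.5 FPKM, with log2 fold changes of 0.48 and −1.24.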

How the data were processed

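FPKM values per gene and library were deposited by the authors, who had used Trim Galore 0.4.1 for trimming, HISAT2 2.0.5 with GRCm38 for mapping and Seqmonk for quantification. The annotation release is not given in the sources read. Libraries were made from rRNA-depleted, amplified cDNA without molecular identifiers, so counts are not independent molecules. The other deposited tables hold dataset means, ratios, p values and fold changes of the authors and were not used. P was compared with NP over the 14292 genes whose mean FPKM exceeded 0.1 in NP or P, by limma 3.58.1 (lmFit, eBayes with trend, two-sided, no block) on log2(FPKM + 1), adjusted after Benjamini-Hochberg, with calls at an adjusted p below 0.1. Fold changes on this scale understate those of genes of low level. The code was tested on simulated data. Counts were recovered as whole steps of the FPKM values (tolerance 0.01) for 15584 of 15585 genes, with the annotated length for 6978 and a searched length of 100–30000 bases for 8606; a step may be a read or a fragment. Percentiles were tested by exact permutation over 70 assignments. Transcripts came from GENCODE vM21 (principal isoform, longest), and copies were searched with blastn 2.17.0. Alternatives were other scalings, a pseudocount of 0.1, a minimum of 1 or none, a replicate block and leaving out each library. The genes and lists were chosen with earlier results of these data known. Named in the text are the 10 genes and, of each other list, those with an unadjusted p below 0.05 and those of the 3 highest means, and the 5 genes most like the mean profile.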

Additional observations from a re-analysis of the deposited data

Results flagged for a closer look

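In groups of 4 libraries, single values far from the other 3 were looked for by Dixon's ratio at its 95% limit. The search ran over 32 groups, which did not take in every gene of the lists, and 4 were found. Chance alone gives about 1 in 20 only where values are normally distributed, which was not tested for these FPKM values. Hnrnpf was at 89.1 FPKM in NP4, against 7.39–13.6 FPKM in the other NP libraries. Hnrnpa3 was at 2.84 FPKM in P4, against 0–0.0417 FPKM in the other P libraries. Hnrnpab was at 174.7 FPKM in NP3, against 2.60–20.8 FPKM in the other NP libraries, and at 569.9 FPKM in P2, against 64.7–109.6 FPKM in the other P libraries. NP4 also held the highest Hnrnpc value of all 8 libraries.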

How the results depend on the processing

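Over 149 fold changes of the 10 genes under alternative settings, 0 passed adjustment in limma (lowest adjusted p = 0.428) and 13 changed sign. Those were Hnrnpa3 without P4 (−0.24), Hnrnpc with one median (0.78), without NP4 (0.03) and without P4 (0.084), Hnrnpd without NP4 (−0.090), Hnrnpf with quantile normalization (0.39), one median (1.12), without NP4 (0.61) and without P2 (0.24), Hnrnpk without NP4 (−0.12) and without P3 (−0.06), and Hnrnpl with quantile normalization (0.11) and one median (0.63); the cause was not tested beyond the construction of each alternative. Hnrnpa1, Hnrnpa2b1, Hnrnpm and Hnrnpu kept their sign under each alternative. Leaving out 1 library gave log2 fold changes of 0.62 (without NP1) to 1.59 for Hnrnpa1, 0.67 to 1.71 for Hnrnpa2b1, 0.084 (without P2) to 0.72 for Hnrnpm, 0.59 to 1.34 for Hnrnpu, −1.14 to 0.084 for Hnrnpc, −0.53 to 0.61 for Hnrnpf, −0.24 to 0.44 for Hnrnpa3, −0.090 to 0.59 for Hnrnpd, −0.12 to 0.69 for Hnrnpk and −1.14 to −0.11 for Hnrnpl. The 3 genes called over all genes became 0 with quantile normalization or one median, 5 with a pseudocount of 0.1 or a mean FPKM above 1, 1 without a filter, 188 with voom on the recovered counts (added after the data were seen), and 0 to 5 without single libraries. The number of hnRNP genes with an unadjusted p below 0.05, higher in P, was 3 with one median. Hnrnpa3 had no value at a mean FPKM above 1. The replicate block gave 1 called gene in place of 3 and changed no call of the 10 genes. Same-numbered libraries correlated at 0.139, 0.0518, 0.251 and 0.155 over 11374 genes, and others at −0.135 to 0.136. Each library but NP2 correlated best with its own number. NP and P samples came from the same profiles, but the sources read do not state that equal numbers mark the same profile. The main limma fit and the permutation tests therefore took no pairs, and a paired permutation test was not run. Percentile differences changed sign for Hnrnpc without P4 (1.42) and for Hnrnpl without NP1 (−1.03), NP4 (−1.11) and P3 (−5.005); over single left-out libraries they ranged from −3.33 to 1.42 for Hnrnpc, −5.005 to 3.72 for Hnrnpl, 12.9 to 20.0 for Hnrnpd, 11.9 to 23.5 for Hnrnpa1 and 17.9 to 28.7 for Hnrnpa2b1, the last 2 reaching an exact permutation p of 0.0286 without NP4 and without P4. The share of Hnrnpc in NP was 67.7% to 79.2% without single libraries. Depth limits Hnrnpa3, Hnrnpm, Hnrnpd and Hnrnpa2b1, where a library held 0 to 155 counts. Low counts also lay behind single values of Hnrnpa1 (13 in NP1, 17 in NP2), Hnrnpu (26 in NP2) and Hnrnpl (37 in P4).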

Other observations

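Over the 8 libraries, the genes whose log2(FPKM + 1) values most resembled the mean centred profile of the 10 hnRNP genes were Heatr5a (r = 0.941), 1700066M21Rik (r = 0.932), Ddx21 (r = 0.927), N4bp2 (r = 0.925) and Dcp1a (r = 0.921), out of 5634 genes with a mean above 10 FPKM. The profile was highest in P3 (0.75 above its mean on the log2 scale) and lowest in NP1 (−0.70). These correlations are descriptions over 8 shared libraries whose scaling affects all genes alike, and no p is given.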
